A study of Mus musculus with 4 samples.

Results

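The genes described here encode 10 ligands of the tumour necrosis factor (TNF) superfamily, Tnf, Lta, Ltb, Cd40lg, Tnfsf8, Tnfsf10, Tnfsf11, Tnfsf12, Tnfsf14 and Fasl, in mouse T cell libraries labelled regulatory T cell. They were chosen by symbol, with earlier results of these data known. Each of the 10 names matched exactly 1 of 50600 gene rows, through a GENCODE M21 annotation of the mm10 mouse build. The samples were 4 libraries of primary cells labelled regulatory T cell, and the mouse strain was C57BL/6NJ. No treatment or genotype is labelled, sex was not collected, and age and developmental stage are given as unknown. The libraries are biological replicates 1 to 4 with a biosample each and a single donor record, so p-values reflect only how these samples differ, and that spread may be technical. The labels cite a protocol for differentiating CD4 T cells, and the headers of the tables carry the word activated with a mark of 0 h. There is no second group, so ligands were compared with each other, with their receptors and across libraries.

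TNF superfamily ligands are mostly membrane proteins that assemble as trimers and bind receptors of the TNF receptor superfamily on neighbouring cells. Some are released from the surface by proteases, and lymphotoxin alpha (Lta) is secreted or held at the membrane by lymphotoxin beta (Ltb). In T cells these ligands help B cells and dendritic cells (Cd40lg), organise lymphoid tissue (Ltb and Lta), drive inflammation (Tnf) and kill target cells (Fasl and Tnfsf10). Many are raised by T cell receptor signals.

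Levels are in TPM, transcripts scaled to gene length and library total, computed here from raw counts and the exon length of each gene, with mean ± SD over n = 4 libraries unless stated otherwise. Library totals ran from 23000465 to 62090744 counts, with replicates 1 and 3 at the lower depth. All 6 regulatory T cell markers on a fixed list reached 1 TPM in every library, with Foxp3 between 7.39 and 9.46 TPM and Ctla4 between 6.97 and 9.13 TPM. That cut is low: Foxp3 (8.28 TPM, rank 8199 of 21764 protein-coding genes), Ctla4 (7.77 TPM), Il2ra (5.52 TPM) and Ikzf2 (1.34 TPM) lay below the median of 15.2 TPM of counted protein-coding genes, while Cd4 stood at 1067 TPM. Tnfrsf18 (107 TPM) and Izumo1r (167 TPM) lay above it. Foxp3, Ctla4, Il2ra and Ikzf2 were thus low beside other genes of these libraries. The data hold no reference level for regulatory T cells, and the libraries are called by their label only. The 4 markers of CD4 T cells summed to between 5722 and 6003 TPM. B cell markers summed to 36.8, 23.7, 27.0 and 11.0 TPM in replicates 1 to 4, and 5 of the 5 that could be tested were called variable between libraries. Macrophage and monocyte markers summed to between 14.0 and 16.7 TPM, mostly Cd68 at 11.7 TPM, with 0.278 TPM for Csf1r. None of 5 dendritic cell markers reached 1 TPM, and their sum was at most 0.333 TPM. Of 2 CD8 T cell markers, Cd8b1 stood at 39.95 TPM and Cd8a at 0.794 TPM. Of 5 natural killer and innate lymphoid markers, 1 reached 1 TPM in every library (Eomes, 4.00 TPM). So did 1 of 4 neutrophil and mast cell markers (S100a9, 1.46 TPM) and 1 of 5 stromal and endothelial markers (Pecam1, 155 TPM). Of 5 thymocyte markers 2 did (Cd1d1, 60.4 TPM, and Dntt, 26.6 TPM). Their part in the ligand levels was not tested. In bulk RNA, fewer cells of a type and less RNA per cell cannot be told apart.

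A total of 9 of the 10 ligands lay at or above 1 TPM in all 4 libraries. So did 45.7% of 21764 protein-coding genes, and 70.5% of the 14116 counted at least once. The ligand below that level was Tnfsf12. The median of the ligands' mean levels was 30.1 TPM, beside 15.2 TPM over the 14116 protein-coding genes counted at least once. The 10 ligands were picked with earlier results of these data known, and 1 of 8 other superfamily ligands reached 1 TPM in all libraries. These values therefore describe the chosen genes and not the superfamily. Together the ligands summed to 1917 ± 103 TPM. Ltb alone gave 75.0% ± 1.78 of that sum and Cd40lg 14.1% ± 1.02, so a pair of genes held most of the ligand message.

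**Figure D1:**
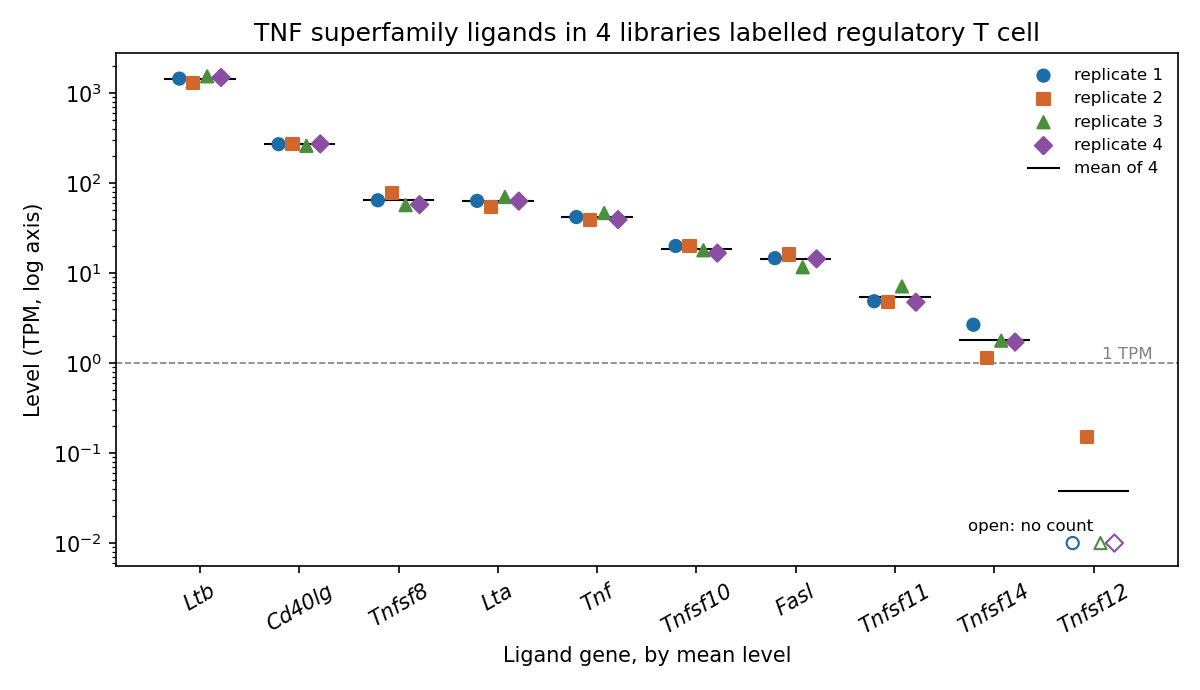
Level of each ligand gene in TPM on a log axis, ordered by mean, with a point per library, a line at the mean of 4 libraries and open points for libraries with no count (drawn at 0.01). Levels fall from 1439 TPM for Ltb to 1.82 TPM for Tnfsf14, and Tnfsf12 has counts in replicate 2 only.

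Ltb, Tnf and Lta lie side by side on chromosome 17. Ltb encodes lymphotoxin beta, the membrane anchor of the lymphotoxin heterotrimer that signals through Ltbr to stromal cells. Its levels were 1448, 1283, 1535 and 1491 TPM in replicates 1 to 4. The mean of 1439 ± 110 TPM placed it at rank 67 of 21764 protein-coding genes. Lta encodes lymphotoxin alpha, the soluble partner, and stood at 63.4, 54.6, 69.98 and 62.99 TPM in the same order. Tnf encodes the inflammatory cytokine itself and stood at 41.9, 38.9, 46.4 and 39.3 TPM. Each of the 3 genes was highest in replicate 3 and lowest in replicate 2, and their levels never overlapped.

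The ratios between these neighbours varied little between libraries. Ltb exceeded Lta 23.0 ± 0.784-fold in TPM, with 21.9-fold in the lowest library and 23.7-fold in the highest. On the log2(TPM + 0.1) scale that difference was 4.52 ± 0.05. Lta exceeded Tnf 1.51 ± 0.0811-fold (log2 difference 0.59 ± 0.08), and Ltb exceeded Tnf 34.7 ± 2.32-fold (5.11 ± 0.09). Each difference had its sign in 4 of 4 libraries. An exact sign-flip test, two-sided, places each among the most extreme 2 of 16 sign patterns (p = 0.13, also after Benjamini-Hochberg adjustment over the 3 ratios). With 4 libraries this test cannot go below that value, so it cannot pass 0.05. So small a spread was not particular to neighbours: the log2 difference of Lta to Tnfrsf1a, on another chromosome, had an SD of 0.10. Other ligand and receptor pairs varied more, such as Tnfsf10 to Tnfrsf10b (SD 0.25). The size of the Ltb ratios depends on the gene length used. With the length of the longest coding transcript, chosen after seeing the data, the log2 difference of Ltb was 4.90 to Lta and 5.49 to Tnf.

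In GENCODE M21 on mm10, Ltb (ENSMUSG00000024399.5) occupies chromosome 17, 35194439 to 35196320 on the plus strand. Tnf (ENSMUSG00000024401.14, 35199381 to 35202007) and Lta (ENSMUSG00000024402.5, 35203165 to 35205351) follow on the minus strand. Gaps of 3060 bases separate Ltb from Tnf and 1157 bases Tnf from Lta. The genes that flank the cluster were Lst1 (5.79 ± 2.15 TPM) beside Ltb and Nfkbil1 (37.2 ± 2.98 TPM) beside Lta. None of the exon bases of the 3 ligand genes is shared with another gene on the same strand.

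**Figure D2:**
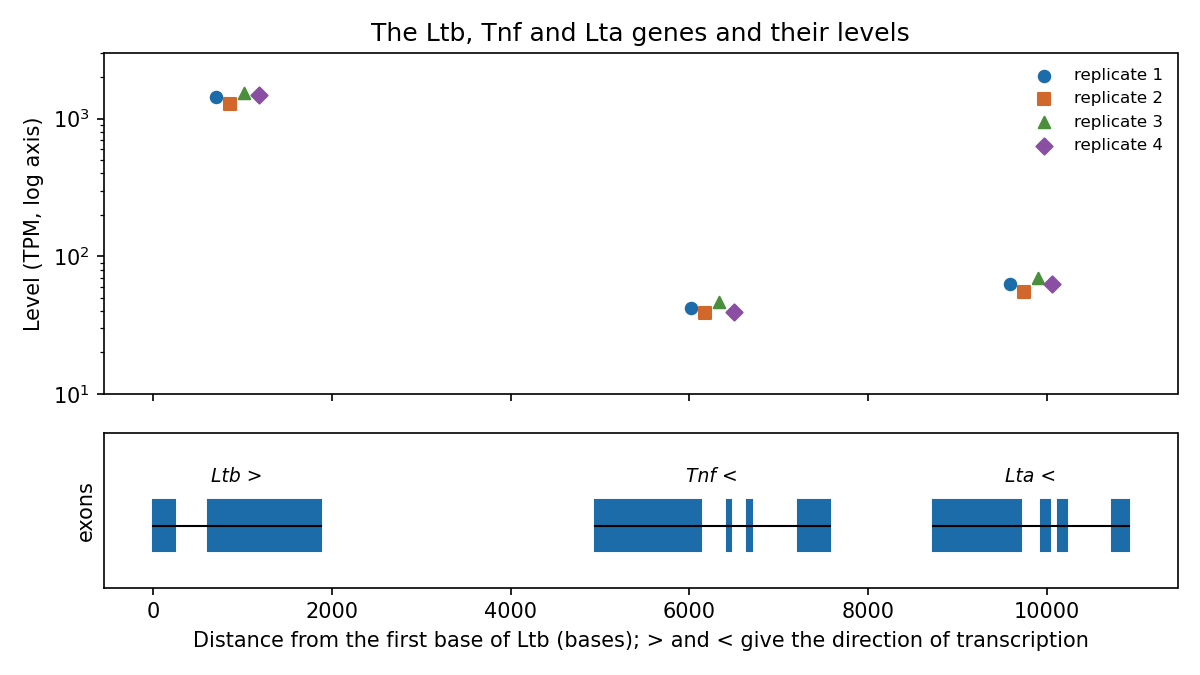
Upper panel: levels of Ltb, Tnf and Lta in TPM on a log axis, with a point per library. Lower panel: their exons to scale by distance in bases from the first base of Ltb, with the direction of transcription, and Ltb lies 21.9-fold or more above both neighbours in every library.

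The adjacent genes Ltb, Tnf and Lta had their highest and lowest library in common, but their spread between libraries was not called variable. The T cell activation markers Egr2, Tnfrsf9 and Tnfrsf4, on other chromosomes, had the same highest and lowest library, while Cd69, Egr1, Nr4a1 and Myc did not. Whether position or promoter bears on the shared libraries was not tested. The promoters of Ltb, Tnf and Lta are shown. They come from RefSeq on GRCm38.p6, run 5′ to 3′ on the gene's strand from 250 bases before to 50 after the RefSeq start site, and 8 of the 10 ligands matched the promoter table. Capitals mark matches to the NF-kB consensus or to TATAAA on either strand.
Ltb (chr17:35194257-35194556, plus strand): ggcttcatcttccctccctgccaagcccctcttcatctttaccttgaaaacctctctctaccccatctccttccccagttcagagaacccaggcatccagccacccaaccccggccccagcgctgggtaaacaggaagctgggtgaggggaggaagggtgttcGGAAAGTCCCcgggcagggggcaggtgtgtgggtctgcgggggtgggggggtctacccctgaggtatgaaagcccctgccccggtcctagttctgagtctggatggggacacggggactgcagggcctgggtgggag
Tnf (chr17:35201958-35202257, minus strand): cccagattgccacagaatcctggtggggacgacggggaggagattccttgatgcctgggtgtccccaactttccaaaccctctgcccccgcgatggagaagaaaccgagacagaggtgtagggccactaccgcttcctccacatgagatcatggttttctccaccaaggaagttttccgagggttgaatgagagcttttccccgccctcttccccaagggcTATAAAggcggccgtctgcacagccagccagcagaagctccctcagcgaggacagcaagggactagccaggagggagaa
Lta (chr17:35205302-35205601, minus strand): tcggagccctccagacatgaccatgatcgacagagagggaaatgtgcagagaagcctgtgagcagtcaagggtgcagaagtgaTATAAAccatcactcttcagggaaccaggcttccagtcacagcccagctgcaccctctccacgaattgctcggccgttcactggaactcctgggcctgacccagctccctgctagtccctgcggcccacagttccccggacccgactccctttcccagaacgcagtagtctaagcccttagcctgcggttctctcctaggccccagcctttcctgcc

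The Ltb window held 1 match to the NF-kB consensus, which starts 87 bases before the start site and overlaps a GGAAA. Among 32851 mouse promoters of that length, 8.46% held such a match, and none of the other 7 ligand windows did. TATAAA stood 29 bases before the start of Tnf, where a TATA box usually lies, 167 bases before that of Lta and 32 bases before that of Tnfsf11 on the opposite strand, beside 13.6% of all promoters. GGAAA, the core of NFAT sites, was found in 8 of 8 ligand windows and in 61.3% of all promoters. These matches describe letters in the window and not binding.

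Messages of TNF family cytokines are known for AU-rich elements in the 3′ untranslated region, through which proteins such as Zfp36 shorten their life. The pentamer ATTTA and the nonamer TTATTTATT, which contains it, were counted on the sense strand of the transcript with the longest coding sequence. Tnf held 8 pentamers and 5 nonamers in 764 bases. Of 10631 genes with a 3′ untranslated region at least as long, cut to that length, 0.442% had as many pentamers and 4.30% had a nonamer. Lta held 3 pentamers and 1 nonamer in 572 bases, and 11.6% of genes had as many over that length. Ltb held none in its 156 bases, which was the usual case, since 17.5% of genes had a pentamer over that length. The densest 30-base stretches of both nonamer genes are shown with pentamers in capitals, to set beside the pentamer-free Ltb.
Tnf: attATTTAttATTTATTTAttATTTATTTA
Lta: aaaagttaagttATTTATTTAtagagaata

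Among the other ligands, Tnfsf8 held 10 pentamers, Tnfsf10 8, Tnfsf11 6, Cd40lg 2, and Fasl, Tnfsf14 and Tnfsf12 1 each. Over the same lengths, as many were found in 14.5% of genes for Tnfsf8, 48.7% for Tnfsf10, 6.95% for Tnfsf11, 19.9% for Cd40lg, 69.8% for Fasl, 74.4% for Tnfsf14 and 55.7% for Tnfsf12. None of these 7 had a nonamer. Per kb Tnf had the most pentamers (10.5), followed by Tnfsf11 (5.31), Lta (5.24) and Cd40lg (4.40). Tnfsf14 (0.981), Fasl (1.13) and Tnfsf12 (1.69) combined low densities with low levels. Whether AU-rich motifs bear on the level of any ligand, Ltb and Tnf included, was not tested.

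**Figure D3:**
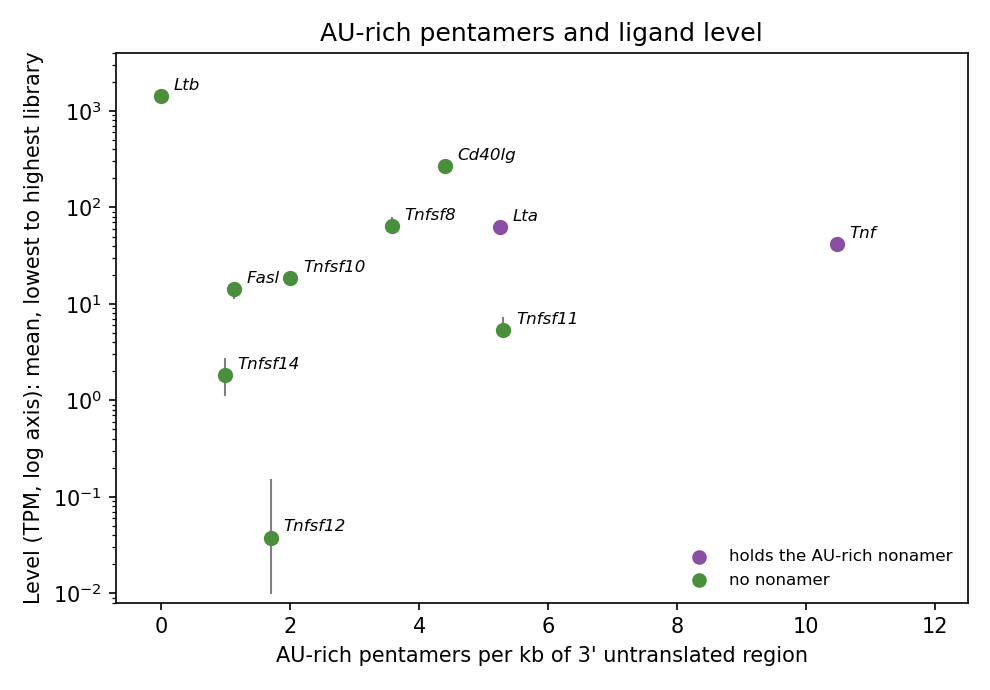
Mean level of each ligand in TPM on a log axis, with a bar from the lowest to the highest library (a library with no count is drawn at 0.01), against ATTTA pentamers per kb of 3′ untranslated region. Ltb stands at 0 pentamers and 1439 TPM, Tnf at 10.5 per kb and 41.6 TPM. The other 8 ligands lie at or below 5.31 per kb.

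Genes of proteins that act on such messages were transcribed, and the RNA of all 10 of a fixed list reached 1 TPM in every library, with a median of 55.4 TPM. The decay factors Zfp36l2 (644 ± 53.6 TPM), Zfp36 (329.6 ± 8.40 TPM) and Zfp36l1 (296 ± 16.5 TPM) lay highest. Khsrp (219.6 ± 10.5 TPM), Hnrnpd (69.2 ± 8.12 TPM), Elavl1 (33.7 ± 0.636 TPM) and Tia1 (17.5 ± 2.13 TPM), which bind AU-rich messages, followed. The stem-loop binding factors Rc3h1 (41.5 ± 1.64 TPM), Zc3h12a (39.998 ± 3.30 TPM) and Rc3h2 (13.5 ± 0.930 TPM) were also present.

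Cd40lg, Tnfsf8 and Tnfsf14 encode ligands that act on B cells, dendritic cells and other T cells. Cd40lg, the helper signal to B cells, stood at 270.5, 272.5, 259.3 and 272.7 TPM in replicates 1 to 4. It was the steadiest ligand, with a coefficient of variation of 2.38%, and its SD of 6.38 TPM stood beside 4.62 TPM that counting alone gives. Tnfsf8, known as CD30 ligand, stood at 64.4, 78.01, 56.8 and 57.6 TPM, with replicate 2 above the rest. Tnfsf14, known as LIGHT, stood at 2.67, 1.14, 1.77 and 1.71 TPM on 22 to 57 counts per library. Counting alone gives an SD of 0.327 TPM for Tnfsf14, beside the 0.632 TPM observed.

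Cd40lg (ENSMUSG00000031132.1) lies on chromosome X, 57212143 to 57224042, between Vgll1, which had no count, and Arhgef6 (70.9 ± 4.998 TPM). Tnfsf8 (ENSMUSG00000028362.2) lies on chromosome 4, 63831308 to 63861347, between its relative Tnfsf15, with 2 counts in all, and Tnc, with none. Tnfsf14 (ENSMUSG00000005824.6) lies on chromosome 17, 57189492 to 57194177, in another ligand cluster with Cd70 and Tnfsf9. It is flanked by Cd70, which had no count, and by the complement gene C3 (0.132 ± 0.0964 TPM). Tnfsf14 and Tnfsf8 were thus counted while the ligand gene beside each had few counts or none. Tnfsf9, beyond Cd70 in the cluster of Tnfsf14, stood at 5.90 TPM, above Tnfsf14 itself.

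Fasl and Tnfsf10 encode the death-inducing ligands of the family. Fasl stood at 14.6, 16.1, 11.6 and 14.4 TPM in replicates 1 to 4, lowest in replicate 3. Tnfsf10, known as TRAIL, stood at 20.0, 19.98, 17.9 and 16.7 TPM. Tnfsf10 exceeded Fasl in every library, 1.33 ± 0.168-fold, and their ranges did not overlap. Fasl (ENSMUSG00000000817.10) lies on chromosome 1, 161780689 to 161788495, between Tnfsf18, which had no count, and Suco (35.1 ± 4.24 TPM). Tnfsf10 (ENSMUSG00000039304.11) lies on chromosome 3, 27317028 to 27342427, between Nceh1 (15.9 ± 0.709 TPM) and Ghsr, which had no count.

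Tnfsf11, known as RANKL, drives osteoclasts and thymic epithelium and is made by some activated T cells. It stood at 4.86, 4.75, 7.10 and 4.74 TPM on 79 to 190 counts per library, so replicate 3 lay apart from the other 3 libraries. It lies on chromosome 14, 78277445 to 78308043 (ENSMUSG00000022015.8), between Fam216b, which had no count, and Akap11 (36.5 ± 1.98 TPM).

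Tnfsf12, known as TWEAK, had 4 counts in replicate 2 and none in the other libraries. It lies on chromosome 11, 69686250 to 69695849 (ENSMUSG00000097328.7), 465 bases from Tnfsf13, with Polr2a (294.5 ± 9.48 TPM) on its other side. The counting step bears on this value: 731 of its 1515 exon bases (48.3%) also belong to the readthrough gene Tnfsfm13 on the same strand. Fragments that touch both genes may be missing from its counts, and the loss was not measured. The remaining 784 bases belong to Tnfsf12 alone, and 3 counts over them would have given between 0.214 and 0.573 TPM in a library. Tnfsf13 and Tnfsfm13 had no count, and they share 60.0% and 76.7% of their exon bases with overlapping genes.

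In order of mean level the ligands were Ltb, Cd40lg, Tnfsf8, Lta, Tnf, Tnfsf10, Fasl, Tnfsf11, Tnfsf14 and Tnfsf12. Of the 9 neighbouring pairs, 8 kept their direction in 4 of 4 libraries, each with an exact sign-flip p of 0.13 (0.141 adjusted over the 9 pairs), and the ranges of these pairs did not overlap. The exception was Tnfsf8 and Lta, whose log2 difference of 0.03 ± 0.35 was smaller than its spread, with Tnfsf8 higher in 2 of 4 libraries (exact sign-flip p = 0.875). These were replicates 1 and 2, and Lta was the higher in replicates 3 and 4. The largest step was between Ltb and Cd40lg among ligands above 1 TPM, at 5.36 ± 0.4995-fold. Without the length correction Tnfsf10 had more counts than Tnf (log2 difference -0.52), and Tnfsf8 lay above Lta by 1.48 ± 0.35, so both results depend on the gene lengths.

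The spread of the ligands across libraries was tested against all genes. Of 12554 genes tested in edgeR, 142 (1.13%) were called variable between libraries at an adjusted p of 0.05. Of the 9 ligands that passed the count filter 0 were called, with 1 ligand at an unadjusted p under 0.05, and DESeq2's dispersion trend also called 0. That ligand was Tnfsf8, with an edgeR adjusted p of 0.25. Its SD of 9.81 TPM fell to 4.15 TPM without replicate 2. Its adjusted p ran from 0.195 without replicate 1 to 0.9999 without replicate 2 over the edgeR and DESeq2 alternatives. The median coefficient of variation of the 9 ligands was 10.03%, beside 6.73% over the 9948 protein-coding genes at 1 TPM in all libraries. These genes were not matched to the ligands for counts, and Tnfsf14, with the highest coefficient of the 9 (34.7%), rests on 22 to 57 counts per library.

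Ligands differed in which library was high. After TMM scaling, replicate 3 lay above the gene's own mean by 0.17 (log2) for Tnf, 0.17 for Lta, 0.10 for Ltb and 0.44 for Tnfsf11. In the same library Fasl lay at -0.27 and Tnfsf8 at -0.16. Replicate 2 showed the reverse, with Lta at -0.23, Ltb at -0.19 and Tnf at -0.13, while Tnfsf8 lay at 0.26 and Fasl at 0.16. Of 7 activation markers, 5 had their highest TPM in replicate 3. Tnfrsf4 lay at 0.37 in replicate 3 and -0.28 in replicate 2, Tnfrsf9 at 0.30 and -0.20, and Egr2 at 0.26 and -0.26. Cd69 went the other way, at -0.09 and 0.24. Il2ra, the regulatory T cell marker called variable, stood at 6.22, 3.63, 9.13 and 3.11 TPM in replicates 1 to 4. The 7 activation markers summed to 408, 399, 463 and 411 TPM in replicates 1 to 4, and their part in the ligand levels was not tested. The part of B cells, whose markers also differed between libraries, in the ligand levels was not tested.

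**Figure D4:**
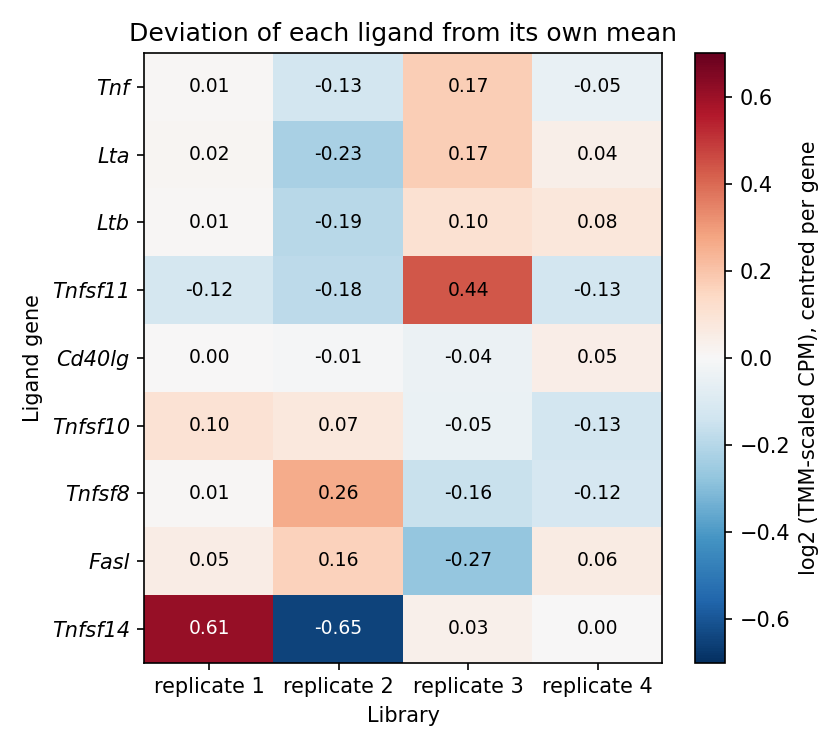
Deviation of each ligand from its own mean over the 4 libraries, as log2 of TMM-scaled CPM (counts scaled to library size), with red above and blue below the mean. Tnf, Lta, Ltb and Tnfsf11 are highest in replicate 3, Tnfsf8 and Fasl are highest in replicate 2, and Tnfsf12, which has libraries with no count, is left out.

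Ligands and receptors were set side by side, since a cell that makes both could receive its own signal. Of 15 receptors and decoys on a fixed list, 10 reached 1 TPM in all libraries, and the median over all 15 was 11.6 TPM. Both TNF receptors exceeded Tnf. Tnfrsf1a (95.8 ± 6.05 TPM) lay above it in every library (log2 ratio of Tnf to Tnfrsf1a -1.20 ± 0.12), as did Tnfrsf1b (66.5 ± 3.79 TPM; -0.68 ± 0.10). Lta lay below Tnfrsf1a (-0.61 ± 0.10), but differed from Tnfrsf1b by less than the spread (-0.09 ± 0.16, sign in 2 of 4 libraries, exact sign-flip p = 0.5). The death receptor Fas (39.1 ± 2.40 TPM) lay above Fasl, with a log2 ratio of Fasl to Fas of -1.47 ± 0.13. Tnfsf10 lay above its receptor Tnfrsf10b (8.04 ± 0.731 TPM) by 1.20 ± 0.25.

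Receptors of the 2 most abundant ligands were nearly absent. Ltbr, the receptor of the lymphotoxin heterotrimer, had 2 to 6 counts per library (0.161 ± 0.128 TPM), and the log2 ratio of Ltb to Ltbr was 12.53 ± 0.59 with 0.1 TPM added to each level and 10.28 with 1 TPM added, so its size depends on the value added. Cd40 had 10 to 12 counts per library and stood at 0.445, 0.201, 0.44 and 0.197 TPM in replicates 1 to 4, and the log2 ratio of Cd40lg to Cd40 was 9.38 ± 0.52 (7.68 with 1 TPM added). Cd40 is a defining gene of B cells, whose markers were present and varied, and the part of B cells in its level was not tested. Tnfrsf8 had no count, so Tnfsf8 was at least 437-fold higher in every library against a floor of 3 counts per library. Tnfrsf11a, the receptor of Tnfsf11, had 9 counts in all, and its soluble decoy Tnfrsf11b had none.

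Tnfsf14 and Tnfsf12 showed the opposite arrangement. Tnfrsf14, a receptor of Tnfsf14 known as HVEM, stood at 229.5 ± 18.1 TPM, with a log2 ratio of Tnfsf14 to Tnfrsf14 of -6.96 ± 0.48. Btla, the inhibitory partner of Tnfrsf14, stood at 136 ± 12.3 TPM. Against its other receptor Ltbr, with its 2 to 6 counts, Tnfsf14 was the higher, at 2.93 ± 0.26 (1.26 with 1 TPM added). Tnfrsf12a stood at 11.6 ± 1.37 TPM, while Tnfsf12 had 4 counts in all (log2 ratio -6.53 ± 0.67, or -3.60 with 1 TPM added, with the counting limit given above). Tnfrsf25, the receptor of Tnfsf15, stood at 172 ± 9.30 TPM. The decoys Tnfrsf22 (30.3 ± 1.63 TPM) and Tnfrsf23 (2.18 ± 0.478 TPM) bind Tnfsf10. Of the 13 pairs, 12 had their sign in 4 of 4 libraries with an exact sign-flip p of 0.13, and 0.135 after adjustment over the 13 pairs.

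**Figure D5:**
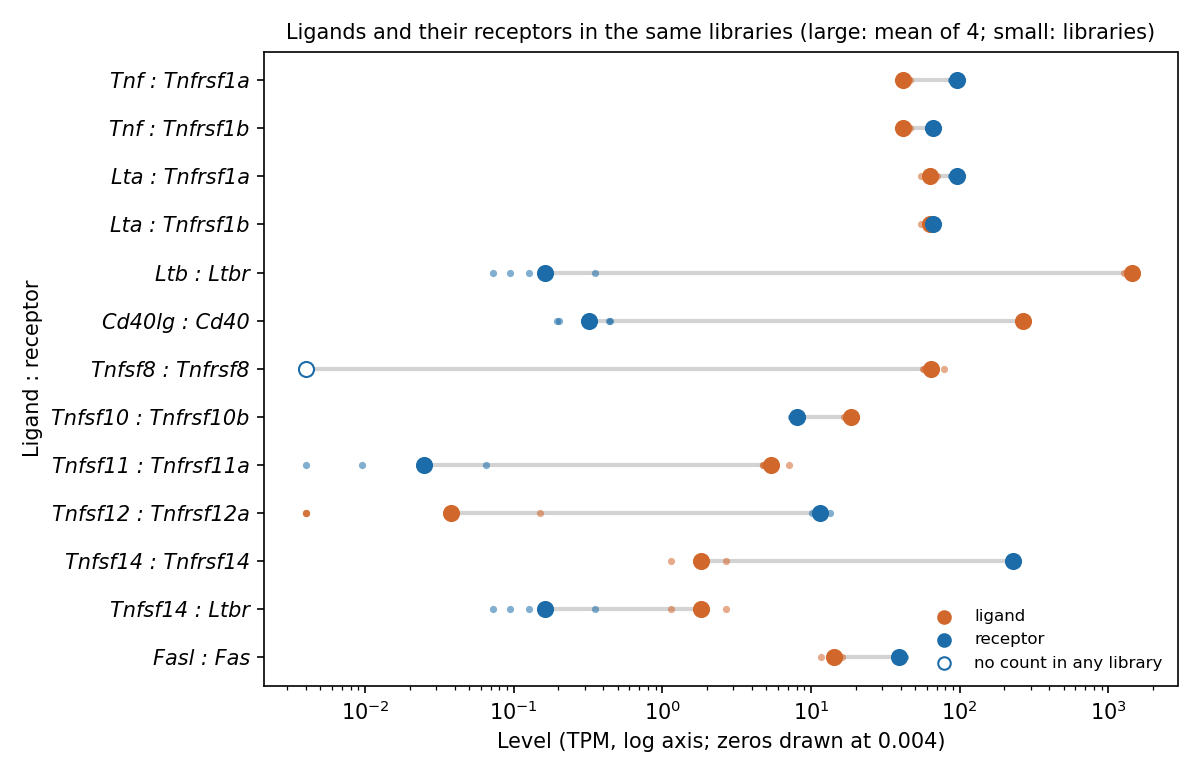
Level of each ligand (orange) and receptor (blue) in TPM on a log axis, with the mean of 4 libraries as a large point and each library as a small one. Ltb, Cd40lg and Tnfsf8 lie far to the right of receptors at or near 0, while Tnfsf14 lies far to the left of Tnfrsf14.

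RNA of proteins that cut the ligands from the surface was detected, and protein was not measured. Of 7 genes on a fixed list, 6 reached 1 TPM in every library. Adam10 (92.7 ± 3.83 TPM), which sheds Fasl and Cd40lg, lay highest, followed by Adam17 (42.6 ± 1.08 TPM), the TNF converting enzyme, with its partner Rhbdf2 (24.9 ± 0.846 TPM). The intramembrane proteases Sppl2b (37.5 ± 3.93 TPM) and Sppl2a (33.3 ± 2.69 TPM) and the convertase Furin (30.6 ± 1.22 TPM) were of similar level. Mmp9 had 2 to 9 counts per library.

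The other ligands of the superfamily were mostly not detected. Of 8, 1 reached 1 TPM in all libraries: Tnfsf9, the ligand of the costimulatory receptor Tnfrsf9, at 7.39, 4.55, 4.63 and 7.03 TPM. Tnfsf4, known as OX40 ligand, had 35 counts in all, of which 26 were in replicate 2. Tnfsf13b, known as BAFF, had 23 counts in all and Tnfsf15 had 2. Cd70, Tnfsf13, Tnfsf18 and Eda had no count. Of 6 classical T cell cytokines on a fixed list, 0 reached 1 TPM, with 20 counts over the 4 libraries for Il2, 27 for Il21, 10 for Csf2 and 5 for Ifng, and none for Il4 and Il17a.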

How the data were processed

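RNA was sequenced from 4 libraries labelled as 1 group of regulatory T cells. The labels call the assay total RNA-seq, but point to a library protocol for polyadenylated RNA. The authors deposited raw fragment counts per gene, made with featureCounts 1.4.6-p4 on paired fragments with strand setting 2 and GENCODE M13 on mm10, per the file headers. The recorded command has no option for multi-mapping or multi-gene fragments. Of 50600 gene identifiers, 50376 matched GENCODE M21, which gave symbols and coordinates.

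TPM was computed from the deposited counts and exon lengths. Spread between libraries was tested in edgeR 4.0.16 (low-count filter, TMM, intercept only), as residual deviance at the trended dispersion against a chi-square on 3 degrees of freedom, with Benjamini-Hochberg adjustment over 12554 genes. This test was also run on simulated data drawn with its fitted dispersions, and no outcome of that run is used here. Ratios within a library, on log2(TPM + 0.1), went through an exact sign-flip test over libraries, two-sided. Alternatives were DESeq2 1.42.0, other size factors, filters, dispersions, pseudocounts and lengths, and leaving out each library. The members and gene lists were chosen with earlier results of these data known, and every gene of the ligand, receptor, protease, message regulator and cytokine lists is named.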

Additional observations from a re-analysis of the deposited data

Results flagged for a closer look

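Of 48 genes checked, 6 had 1 library further from the other 3 than Dixon's 95% critical value for 4 samples allows. For normally spread values chance gives about 1 in 20, but a gene counted in a single library, as Tnfsf12 and Tnfsf15 were, is always named, so the 6 cannot be set against that rate. Cd40lg stood at 259.3 TPM in replicate 3, beside 270.5 to 272.7 TPM in the others. Tnfsf11 stood at 7.10 TPM in replicate 3, beside 4.74 to 4.86 TPM. Replicate 3 has the fewest counts of the 4 libraries, and it holds 106 counts of Tnfsf11. Tnfsf12 stood at 0.151 TPM in replicate 2, on 4 counts, with no count elsewhere. Among the other ligands, Tnfsf4 stood at 0.805 TPM in replicate 2, beside 0.121 to 0.224 TPM, and Tnfsf15 at 0.0333 TPM in replicate 4, on 2 counts. Mmp9 stood at 0.350 TPM in replicate 1, beside 0.0847 to 0.129 TPM.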

How the results depend on the processing

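The number of ligands called variable between libraries was 0 under each of the 8 alternatives, while the number of all genes called was 142 in edgeR, 352 with a common dispersion, 88 without the low-count filter, 119 with DESeq2's size factors and dispersion trend, 139 with DESeq2's size factors in edgeR and 60 to 85 with 1 library left out. At 5 TPM in place of 1 TPM, 7 ligands were detected in all libraries in place of 9. Under the alternatives, ratios kept their sign in 69 comparisons of the order, 90 of ligands with receptors and 24 of the lymphotoxin genes, and 4 changed sign. Where a pair had the same sign in every library, leaving out a library or adding 1 TPM could not change that sign. Most pairs were of this kind, so their kept signs in those settings carry no information. With 1 TPM added in place of 0.1, Tnfsf14 to Tnfsf12 went from 3.87 to 1.42 and Tnfsf11 to Tnfrsf11a from 5.46 to 2.62. Tnf to Tnfsf10 went to -0.52 (log2) when counts were not divided by length. Tnfsf8 to Lta went to -0.12 with 200 bases taken off each length and ran from -0.14 (without replicate 2) to 0.14 (without replicate 3) with 1 library left out. Lta to Tnfrsf1b went to 0.060 with 200 bases taken off. Both of the latter pairs differed by less than their spread in the first place. The length of the longest coding transcript, an alternative chosen after seeing the data, gave 28.6 TPM for Tnf, 1292 TPM for Ltb and 184.5 TPM for Cd40lg. Tnf and Cd40lg kept their lengths of 1639 and 1250 bases there, so their lower values come only from the changed length-scaled library total. Ltb went from 1516 to 1160 bases. Its log2 ratio to Lta went from 4.52 to 4.90, to Tnf from 5.11 to 5.49 and to Cd40lg from 2.42 to 2.80. No comparison between groups, paired or not, was possible because there is a single group. The ratio tests compare genes within each library. Tnfsf14 and Tnfsf11 rest on few counts, and the level of Tnfsf12 is limited by its overlap with Tnfsfm13.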
